A study of Mus musculus with 2 samples.

Results

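Kupffer cells are the macrophages that reside in the sinusoids of the liver, and their marker genes were followed here in whole liver tissue. The set held 33 genes, given by name, and each matched 1 row in both libraries, out of 21474 protein-coding genes and 43346 mouse gene rows. It was divided by what the genes are known to mark. The resident members, 10 genes, were grouped as markers of resident macrophages (Clec4f, Vsig4, Timd4, Cd5l, Marco, Folr2, Cd163, Spic, Id3 and Hpgd). Which liver cells their RNA came from, that of Id3 and Hpgd included, was not tested. The general myeloid members, 23 genes, are used by macrophages in most tissues and in part by monocytes, neutrophils, dendritic cells or other leukocytes. The rule that names the members uses no measured value, although members and comparison lists were chosen with earlier results of these data known.

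The samples were 2 libraries of total RNA longer than 200 nucleotides from liver of adult C57BL/6J mice, an inbred strain, at 8 weeks of age. They form 1 group, biological replicates 1 and 2, with no treatment, mutation or sort named. The libraries have separate biosamples but the same donor identifier, the sex was not recorded, and whether they came from separate animals is not stated. Each SD is therefore over n = 2 and may be partly technical, and no test between groups could be made. The depth over protein-coding genes was 58726675 estimated counts for replicate 1 and 53386000 for replicate 2, of which the 33 members took 83181 in replicate 1 and 63200 in replicate 2. Levels are given in ppm, which here means parts in 1000000 of the TPM, a measure scaled to transcript length, summed over protein-coding genes. This share was used because protein-coding genes held only 12.1% of all TPM in replicate 1 and 16.3% in replicate 2, so that 1 deposited TPM equals 8.23 ppm in replicate 1 and 6.14 ppm in replicate 2.

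Kupffer cells line the liver sinusoids, where they take up bacteria, immune complexes, aged red blood cells and dying cells from the blood that arrives from the gut. They descend from embryonic precursors and maintain themselves in the liver. When they are lost, blood monocytes can replace them and take on their genes under signals from endothelial, stellate and parenchymal cells. The lineage factor PU.1 (Spi1) opens macrophage enhancers in general, while LXR alpha (Nr1h3), SpiC and Id3 belong to the Kupffer cell programme. In bulk tissue, fewer cells of a type and less RNA per cell cannot be told apart.

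The promoters of the members share features that the choice of genes did not use. RefSeq promoter windows on GRCm38.p6, from 250 bases before to 50 bases after the annotated start, were matched by symbol for 28 of the 33 members. Adgre1, C1qa, Csf1r, Msr1 and Tyrobp had no entry. The letters GAGGAA, the core bound by PU.1 and related ETS factors, were searched on both strands. They occurred in 19 of the 28 members (67.9%), among them 5 of the 10 resident members, against 30.3% of 16317 protein-coding genes and 28.3% of all 32851 promoter windows. In a comparison added after seeing the data, the share of members also exceeded that of genes with few CpG dinucleotides, where 18 of 27 members (66.7%) and 32.8% of 7673 protein-coding genes held these letters.

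A CpG ratio, observed over expected from base content, under 0.6 was found in 27 of the 28 member promoters. The background was 47.0% of the protein-coding genes and 64.2% of all 32851 promoter windows. For a gene with several starts the highest value was taken, which lowers the share of genes with a low ratio. The median member held 4 CpG dinucleotides against 16 for protein-coding genes. Id3 was the exception with a ratio of 0.704. The letters TGCTGA, a core of the MAF site searched on both strands, occurred in 11 of 28 members (39.3%) and in 20.4% of protein-coding genes, and 6 of these 11 were resident members. TGGGAA, the core of the RBPJ site, was searched on both strands and occurred in 7 members (25%) against 27.2% of protein-coding genes. It shares its last letters with GAGGAA but cannot cover the same site. TATAAA on the coding strand occurred in 2 members (7.14%) against 9.33% of protein-coding genes. These matches describe the letters in the windows and were not tied to binding.

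The following 5 windows are shown because they cover the range: resident and general promoters with the GAGGAA letters, the promoter of the defining gene Clec4f without them, and the CpG-rich promoter of Id3. Sequences run 5′ to 3′ on the strand of the gene, and capitals mark GAGGAA or, where it lies on the opposite strand, its complement TTCCTC. They cover chr3:87357631-87357930 (plus strand) for Cd5l, chrX:96293389-96293688 (minus) for Vsig4, chr4:136892865-136893164 (minus) for C1qc, chr6:83656067-83656366 (minus) for Clec4f and chr4:136143572-136143871 (plus) for Id3.
Cd5l: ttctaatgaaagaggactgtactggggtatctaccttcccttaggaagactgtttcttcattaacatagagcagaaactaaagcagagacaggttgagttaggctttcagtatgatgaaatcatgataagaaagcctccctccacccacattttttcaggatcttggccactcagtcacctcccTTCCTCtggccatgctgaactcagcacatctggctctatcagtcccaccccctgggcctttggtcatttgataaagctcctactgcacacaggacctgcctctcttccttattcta
Vsig4: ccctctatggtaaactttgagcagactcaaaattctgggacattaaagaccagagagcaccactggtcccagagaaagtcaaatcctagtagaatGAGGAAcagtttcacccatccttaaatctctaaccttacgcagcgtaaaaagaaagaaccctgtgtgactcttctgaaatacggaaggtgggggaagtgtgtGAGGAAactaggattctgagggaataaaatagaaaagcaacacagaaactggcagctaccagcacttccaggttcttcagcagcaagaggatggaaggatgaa
C1qc: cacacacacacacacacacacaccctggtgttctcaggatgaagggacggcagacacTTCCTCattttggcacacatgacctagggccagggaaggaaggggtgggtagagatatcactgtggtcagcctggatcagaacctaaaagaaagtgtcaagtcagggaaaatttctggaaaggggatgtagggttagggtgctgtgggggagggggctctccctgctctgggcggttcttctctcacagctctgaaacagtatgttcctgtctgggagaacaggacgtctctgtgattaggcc
Clec4f: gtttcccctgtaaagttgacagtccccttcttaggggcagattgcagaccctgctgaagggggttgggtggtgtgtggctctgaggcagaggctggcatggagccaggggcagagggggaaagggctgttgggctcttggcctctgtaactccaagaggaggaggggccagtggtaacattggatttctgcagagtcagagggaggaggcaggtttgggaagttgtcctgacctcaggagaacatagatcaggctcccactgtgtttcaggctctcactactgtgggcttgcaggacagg
Id3: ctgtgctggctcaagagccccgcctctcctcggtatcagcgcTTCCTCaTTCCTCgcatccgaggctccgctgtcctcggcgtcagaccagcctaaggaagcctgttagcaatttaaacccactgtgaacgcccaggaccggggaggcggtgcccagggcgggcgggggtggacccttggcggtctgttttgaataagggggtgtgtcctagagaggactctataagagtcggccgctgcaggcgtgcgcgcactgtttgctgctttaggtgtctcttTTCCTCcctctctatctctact
The single match in Cd5l began 66 bases upstream of the start, those in Vsig4 began 155 and 53 bases upstream, and that in C1qc began 193 bases upstream. Id3 had matches that began 208 and 201 bases upstream and another 28 bases downstream of the start. The Id3 window held 19 CpG dinucleotides, and those of Clec4f and Cd5l held 0.

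**Figure D1:**
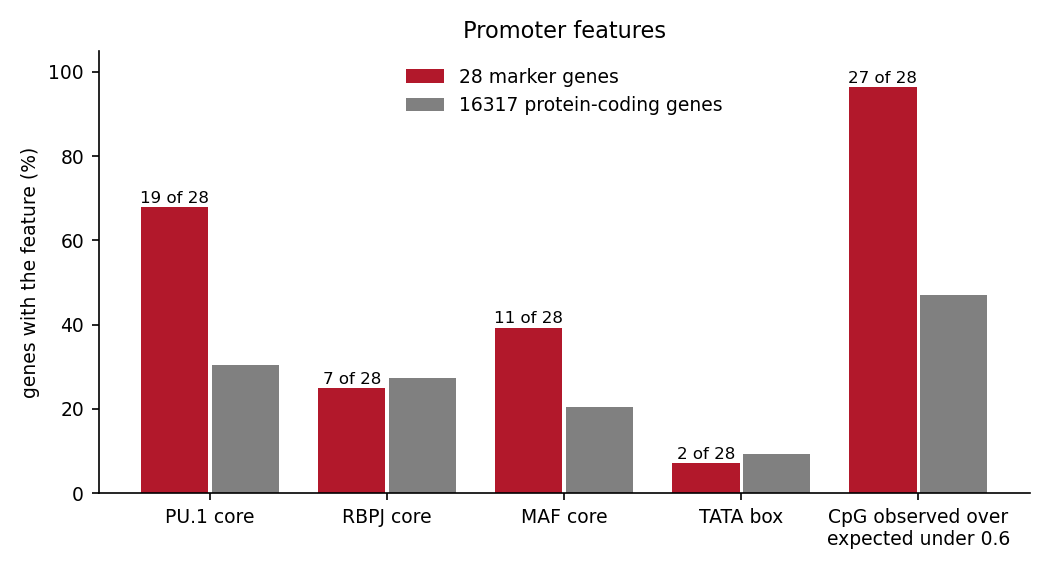
Share of genes, in percent, whose promoter window holds each feature, for the 28 matched marker genes (red, left bar of each pair) and for 16317 protein-coding genes (grey). Bars of the PU.1 core, the MAF core and the low CpG ratio are higher in the marker genes, while those of the RBPJ core and the TATA box are lower.

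The Kupffer cell markers were detected almost throughout in liver. At 1 ppm or more in both libraries, 32 of 33 members were found, against a background of 51.0% of the 21474 protein-coding genes. The exception was Itgam. Together the members held 0.143% of protein-coding TPM in replicate 1 and 0.123% in replicate 2 (0.133% ± 0.0138, SD, n = 2). By mean level, 8 members lay at or above the 90th percentile of protein-coding genes and 20 at or above the 75th. At 10 ppm or more in both libraries were 22 members, a cut for which the share of all genes is not given. The levels kept nearly the same order in the libraries (Spearman's rho 0.957 over 33 genes, which share the libraries and their depth).

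The resident members summed to 755.9 ppm in replicate 1 and 574.1 ppm in replicate 2 (665 ± 129 ppm, SD, n = 2). The general myeloid members summed to 673 ppm in replicate 1 and 659 ppm in replicate 2 (666 ± 9.87 ppm). The resident sum was thus 1.12 times the general sum in replicate 1 and 0.871 times in replicate 2, and which list led depended on the library. A single gene carried much of the resident sum: Hpgd made up 42.8% of it in replicate 1 and 39.0% in replicate 2. Without Hpgd, a choice made after seeing the data, the resident sum was 432 ppm in replicate 1 and 350 ppm in replicate 2, below the general sum in both libraries. Hpgd, Clec4f and Cd5l together made up 82.4% of the resident sum in replicate 1 and 79.3% in replicate 2, so the other 7 resident members added little.

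**Figure D2:**
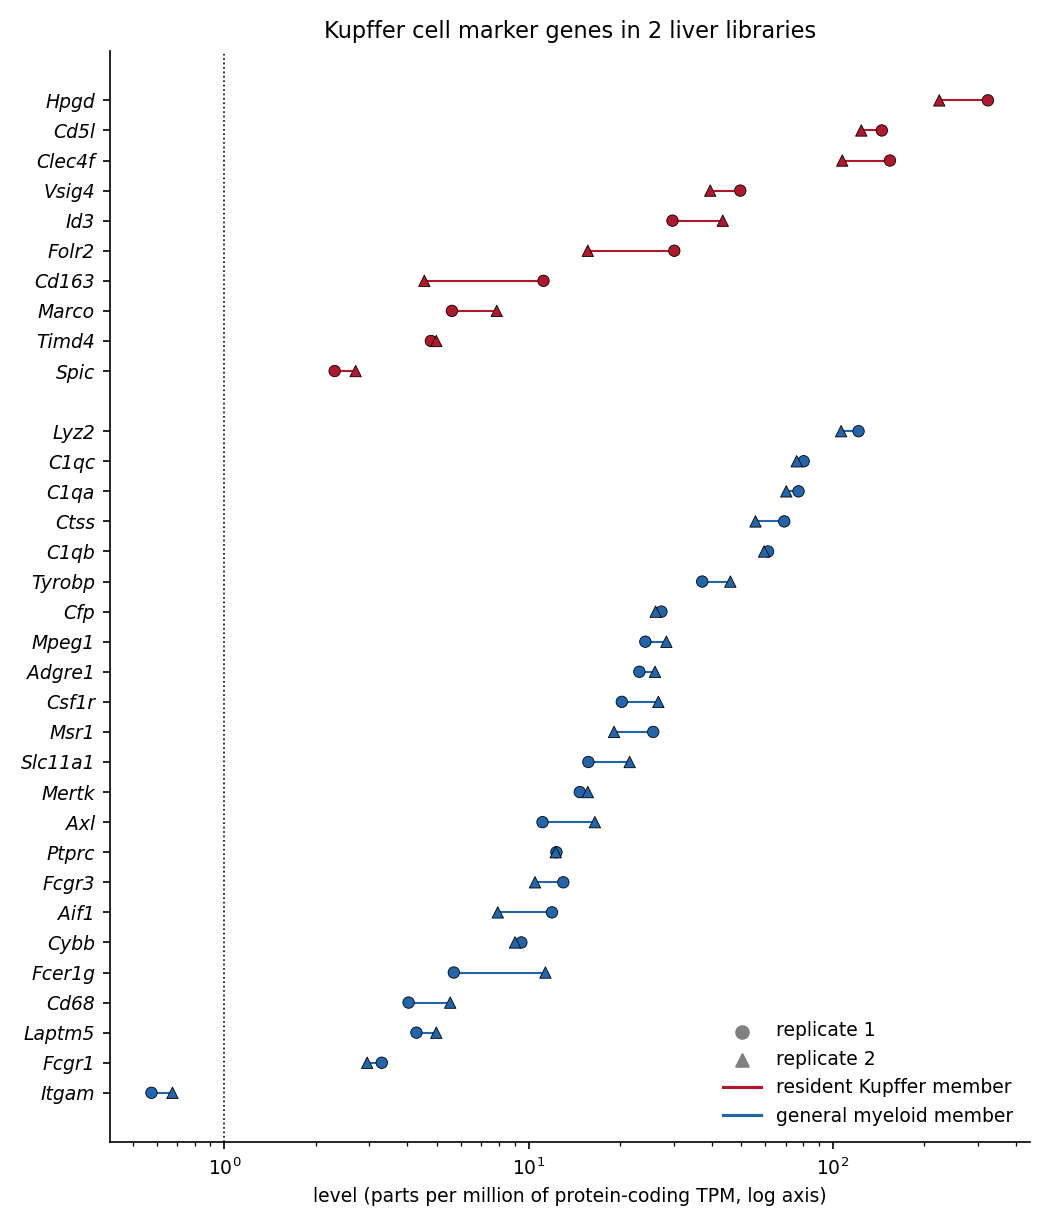
Level of each marker gene in replicate 1 (circles) and replicate 2 (triangles), in ppm of protein-coding TPM on a log axis, with resident members above (red) and general myeloid members below (blue). The dotted line marks 1 ppm. Hpgd is highest in both libraries, Itgam is the only gene left of the line, and the longest connecting lines belong to Cd163, Fcer1g and Folr2.

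Scavenger receptors and lectins bind bacteria, modified lipoproteins and free haemoglobin. Clec4f, a C-type lectin that in adult mice marks Kupffer cells (chromosome 6, 83644542 to 83656187, mm10), had 154 ppm in replicate 1 and 107 ppm in replicate 2, from 8539 and 5501 counts. Vsig4, the complement receptor CRIg that captures C3b-coated bacteria, had 49.6 ppm in replicate 1 and 39.6 ppm in replicate 2. Both were among the higher members and both were higher in replicate 1. Folr2, folate receptor beta, had 30.1 ppm in replicate 1 and 15.7 ppm in replicate 2, and Msr1, scavenger receptor A, had 25.7 and 19.1 ppm in replicates 1 and 2. Cd163, the haemoglobin scavenger receptor, had 11.2 ppm in replicate 1 and 4.54 ppm in replicate 2, from 1824 and 633 counts. Cd163 and Folr2 showed the widest gaps of the group, with replicate 1 higher. Marco, a scavenger receptor for bacteria and particles, had 5.60 ppm in replicate 1 and 7.86 ppm in replicate 2. Cd68, a lysosomal glycoprotein used widely as a macrophage stain, had 4.03 ppm in replicate 1 and 5.53 ppm in replicate 2. Cd68 and Marco were higher in replicate 2, while Cd163, at a similar level, was higher in replicate 1 and the lowest of the group in replicate 2.

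Members with secreted products, those of complement and Cd5l, had the highest sum of the functional groups, 391 ppm in replicate 1 and 356 ppm in replicate 2. Cd5l, the apoptosis inhibitor AIM that circulates with immunoglobulin M (chromosome 3, 87357881 to 87371073, mm10), had 145 ppm in replicate 1 and 124 ppm in replicate 2, from 10158 and 7491 counts. The 3 chains of C1q, the molecule that starts the classical complement pathway, are made by macrophages rather than hepatocytes. C1qc had 80.2 ppm in replicate 1 and 76.1 ppm in replicate 2, C1qa had 77.1 and 70.3 ppm, and C1qb had 61.3 and 59.5 ppm. The C1q genes lie side by side on chromosome 4, with 3.62 kb between C1qb and C1qc and 2.85 kb between C1qc and C1qa. Their levels kept close ratios: C1qa was 0.962 times C1qc in replicate 1 and 0.924 times in replicate 2, and C1qb was 0.764 and 0.781 times C1qc in replicates 1 and 2. The C1q chains made up 32.5% of the general myeloid sum in replicate 1 and 31.2% in replicate 2. Cfp, properdin, which stabilises the alternative pathway convertase, had 27.3 ppm in replicate 1 and 26.2 ppm in replicate 2.

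Genes of the phagosome and lysosome spanned a wide range. Lyz2, lysozyme, led the general members with 122 ppm in replicate 1 and 106 ppm in replicate 2. Ctss, a protease that processes the invariant chain for antigen presentation, had 69.2 ppm in replicate 1 and 55.7 ppm in replicate 2. Lyz2 and the C1q chains together held 50.5% of the general sum in replicate 1 and 47.4% in replicate 2. Mpeg1, the pore-forming perforin-2, had 24.2 ppm in replicate 1 and 28.4 ppm in replicate 2. Slc11a1, the gene of the phagosomal metal ion transporter Nramp1, had 15.7 ppm in replicate 1 and 21.5 ppm in replicate 2. Whether its protein works in this strain was not tested. Cybb, the catalytic subunit of the phagocyte NADPH oxidase, had 9.47 ppm in replicate 1 and 9.03 ppm in replicate 2. Laptm5, a lysosomal membrane protein of blood cells, was the lowest of the group with 4.28 ppm in replicate 1 and 4.97 ppm in replicate 2.

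Fc receptor and adaptor genes included both higher and lower members. Tyrobp, the adaptor DAP12, had 37.2 ppm in replicate 1 and 46.1 ppm in replicate 2, while Fcer1g, the Fc receptor gamma chain, had 5.68 and 11.4 ppm in replicates 1 and 2, from only 101 and 175 counts. Tyrobp was therefore 6.55 times as high as Fcer1g in replicate 1 and 4.05 times in replicate 2. Fcgr3, a low-affinity IgG receptor, had 13.01 ppm in replicate 1 and 10.5 ppm in replicate 2, and Fcgr1, the high-affinity IgG receptor, had 3.29 and 2.95 ppm in replicates 1 and 2. Fcgr3 was the only member whose count carried a posterior SD above 0 (1.37 counts in replicate 1 and 1.13 in replicate 2), the deposited measure of reads shared with other genes, and this was small beside its 564 and 396 counts.

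Of the receptors for dying cells, Mertk and Axl, kinases that bind phosphatidylserine through Gas6 and, for Mertk, protein S, were above Timd4, which binds phosphatidylserine directly. Mertk had 14.7 ppm in replicate 1 and 15.7 ppm in replicate 2, Axl had 11.1 and 16.5 ppm, and Timd4 had 4.78 and 4.97 ppm. Timd4 marks resident Kupffer cells of embryonic origin, and the level of Cd5l was 30.3 times that of Timd4 in replicate 1 and 24.9 times in replicate 2. Among the surface and growth factor genes, Adgre1 (F4/80) had 23.1 ppm in replicate 1 and 26.0 ppm in replicate 2, and Csf1r, the receptor for CSF1 and IL-34 on which macrophages depend, had 20.3 and 26.7 ppm. Ptprc (CD45), the pan-leukocyte phosphatase, had 12.4 ppm in replicate 1 and 12.3 ppm in replicate 2, and Aif1 (IBA1), an actin-binding protein, had 11.9 and 7.92 ppm. Itgam (CD11b), the integrin that is high on monocytes and neutrophils and low on Kupffer cells, had 0.576 ppm in replicate 1 and 0.676 ppm in replicate 2, from 92 and 85 counts. Its TPM is deposited to 2 decimals, which limits its precision. Adgre1 was 40.1 times as high as Itgam in replicate 1 and 38.5 times in replicate 2.

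The last resident members act in the nucleus or on lipid mediators. Hpgd, the enzyme that inactivates prostaglandins (chromosome 8, 56294585 to 56321043, mm10), was the highest member with 323 ppm in replicate 1 and 224 ppm in replicate 2, from 18736 and 11182 counts. Id3, an inhibitor of basic helix-loop-helix factors needed for Kupffer cell development, had 29.7 ppm in replicate 1 and 43.5 ppm in replicate 2. Spic, an ETS factor induced by haem in iron-recycling macrophages, had 2.31 ppm in replicate 1 and 2.70 ppm in replicate 2, and was the lowest resident member.

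The label of the set was checked against markers of other cells that bulk liver holds. At 1 ppm or more in both libraries were 51.0% of all protein-coding genes. Of the blood cell lists, that of monocytes came nearest to this share, and the others had fewer members at this level. Monocyte markers summed to 35.2 ppm in replicate 1 and 28.9 ppm in replicate 2, with 4 of 9 at 1 ppm or more in both, and Plac8 (26.6 and 19.7 ppm) and Treml4 (3.79 and 4.05 ppm) led. The general myeloid sum was 19.2 times the monocyte sum in replicate 1 and 22.8 times in replicate 2. Neutrophil markers summed to 4.36 and 6.82 ppm in replicates 1 and 2, led by S100a9 (2.31 and 3.32 ppm) and S100a8 (1.89 and 2.40 ppm), with 2 of 10 at 1 ppm or more and 2, Ly6g and Mpo, at 0 in both. Dendritic markers summed to 8.32 and 9.46 ppm, with 2 of 8 at 1 ppm or more, Zbtb46 (4.69 and 4.79 ppm) and Clec9a (2.47 and 2.52 ppm). T and NK markers summed to 6.34 and 5.77 ppm, with 1 of 10, Cd3g (1.40 and 1.04 ppm), at 1 ppm or more and Gzma (0.823 and 1.17 ppm) next. B cell markers summed to 5.27 ppm in replicate 1 and 17.9 ppm in replicate 2, with 1 of 8, Cd79b (1.98 and 4.24 ppm), at 1 ppm or more in both and Mzb1 (0.988 and 4.30 ppm) next.

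Lists for macrophages of other sites also had low sums, but they held only 5 and 4 genes. At 1 ppm or more in both libraries were 4 of 5 capsular and peritoneal genes and 3 of 4 red pulp genes. The share over all protein-coding genes was 51.0%. In each library, all of these detected genes were above the resident member Spic (2.31 and 2.70 ppm in replicates 1 and 2). Lyve1 and Vcam1 were also above Timd4 (4.78 and 4.97 ppm). The capsular and peritoneal list summed to 15.6 ppm in replicate 1 and 26.7 ppm in replicate 2 and was led by Lyve1 (5.10 and 13.4 ppm) and Icam2 (4.69 and 6.14 ppm), which endothelial cells also express. Cd207 (langerin), a lectin gene 15.0 kb from Clec4f, was far below its neighbour: Clec4f was 46.8 times Cd207 in replicate 1 and 35.0 times in replicate 2. The red pulp list summed to 22.1 ppm in replicate 1 and 25.6 ppm in replicate 2, led by Vcam1 (14.0 and 16.3 ppm) and Siglec1 (4.03 and 5.16 ppm). Among other cells of liver, the endothelial and stellate lists came nearest to the Kupffer lists in sum. Sinusoidal endothelial markers summed to 356 ppm in replicate 1 and 342 ppm in replicate 2 (10 of 10 at 1 ppm or more, led by Clec4g with 119 and 91.9 ppm and Stab2 with 65.9 and 79.0 ppm), and stellate markers to 397 and 482 ppm (10 of 10, led by Dcn with 156 and 164 ppm and Reln with 62.4 and 69.5 ppm). Cholangiocyte markers summed to 9.55 and 7.80 ppm (4 of 8, led by Krt19 with 4.03 and 2.58 ppm). These sums depend on which genes a list holds, so they are not cell numbers. The median gene of the resident list was at 29.9 ppm in replicate 1 and 27.6 ppm in replicate 2, and that of the general list at 15.7 and 19.1 ppm.

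**Figure D3:**
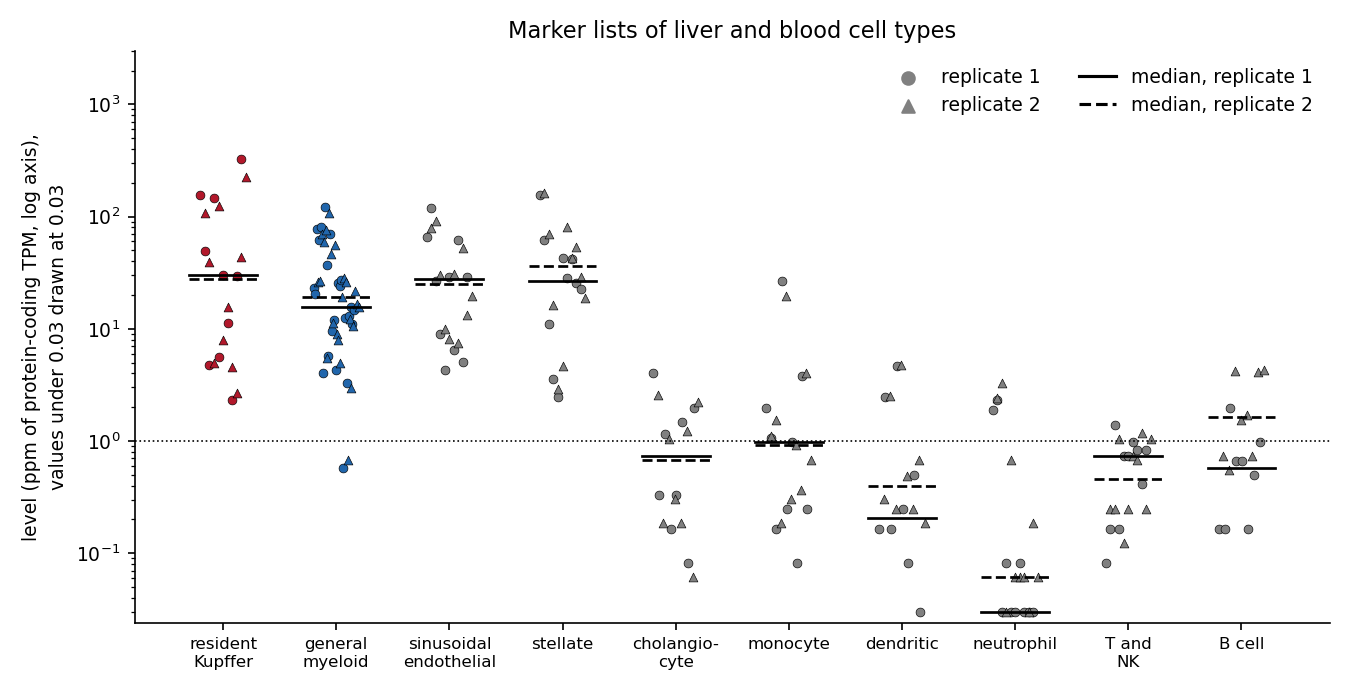
Level of every gene of the Kupffer cell lists (red and blue, left) and of lists for other cell types (grey), in ppm of protein-coding TPM on a log axis, in replicate 1 (circles) and replicate 2 (triangles). Horizontal bars are list medians in replicate 1 (solid) and replicate 2 (dashed), genes near 0 are drawn on the bottom edge, and the dotted line marks 1 ppm. The Kupffer, endothelial and stellate medians lie above 10 ppm, and the cholangiocyte, monocyte, dendritic, neutrophil and T and NK medians lie below 1 ppm in both libraries.

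By their medians in the main measure, given next, the resident members were further apart between the libraries than the general ones. This contrast was not tested and did not hold with spike-in scaling. The difference is given as the log2 ratio of replicate 1 over replicate 2 on TMM-scaled CPM (counts scaled to the library total) plus 0.5. There is 1 library on each side, so it has no replicate check. By this measure, 2 of 33 members were over 2-fold apart, against 2.65% of 13596 protein-coding genes with a mean count of 10 or more. Both were higher in replicate 1, where the background was 1.38%, and 0 were higher in replicate 2, where it was 1.27%. They were Cd163 (log2 ratio 1.39) and Folr2 (1.00). Cd163 was past 2-fold under each of the scalings tried. Folr2 was not past it with spike-in scaling, with the ratio of TPM shares, or after correction for GC content and length.

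The median log2 ratio was 0.42 over the resident members, with 7 of 10 higher in replicate 1, and 0.10 over the general members, with 14 of 23 higher in replicate 1. Over all tested genes it was -0.01, with 48.7% higher in replicate 1. Among resident members, Hpgd had a log2 ratio of 0.65, Clec4f 0.54, Vsig4 0.49 and Cd5l 0.35. Timd4 (0.06) and Spic (-0.10) differed little, and Marco (-0.49) and Id3 (-0.54) were higher in replicate 2. The resident members therefore did not all differ in the same direction. Among general members the range ran from 0.53 for Msr1 to -0.68 for Fcer1g, and the C1q chains lay between 0.16 and 0.25. With spike-in scaling, under which the median of all genes was -0.26, the resident median was 0.14 with 6 of 10 higher in replicate 1, the general median was -0.18 with 4 of 23 higher in replicate 1, and each C1q chain was slightly higher in replicate 2. The 95% counting interval, which covers counting error only, excluded the median of all genes for 26 of 33 members (78.8%), against 64.6% of all tested genes. These shares are not compared at equal level: the median was 22.4 ppm for members and 8.44 ppm for all tested genes, and the interval narrows as counts rise. The 5th to 95th percentile of all tested genes ran from -0.65 to 0.57 and held 29 of 33 members. Outside it lay Cd163, Folr2, Hpgd and Fcer1g.

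Across the members, the log2 ratio was lower where the GC content of the transcripts was higher (Pearson's r -0.34, Spearman's rho -0.36, over 33 genes measured in the same libraries). All tested genes showed the same trend (r -0.29, rho -0.37, over 13595 genes), whose median was 0.22 where GC content was lowest, in the first of 10 bins, and -0.21 where it was highest. The 16 members below the members' median GC had a median log2 ratio of 0.19, and the other 17 had -0.17. After a smooth fit on GC content and length was subtracted, the resident median was 0.33 and the general median 0.05, against -0.0014 over all genes. Other tissues' markers also differed between the libraries. Pancreatic acinar genes summed to 1304 ppm in replicate 1 and 318 ppm in replicate 2, with all 11 over 2-fold higher in replicate 1 (Cela2a 213 and 74.5 ppm, Try4 216 and 42.3 ppm). Adrenal cortex genes summed to 1.48 and 84.4 ppm, with all 5 over 2-fold higher in replicate 2 (Hsd3b1 0.823 and 31.2 ppm, Star 0.494 and 23.8 ppm). Erythroid genes summed to 1081 and 1602 ppm in replicates 1 and 2 (Hbb-bs 591 and 871 ppm, Hba-a2 218 and 357 ppm, both uncertain because of near-identical copies) and mesothelial genes to 2.22 and 1.11 ppm (Upk3b 0.741 and 0.430 ppm, Msln 0.659 and 0.246 ppm). Hepatocyte genes summed to 87641 and 105392 ppm (Alb 57240 and 67452 ppm, Ahsg 9250 and 10701 ppm). The part of these tissues in the differences of the Kupffer members was not tested.

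**Figure D4:**
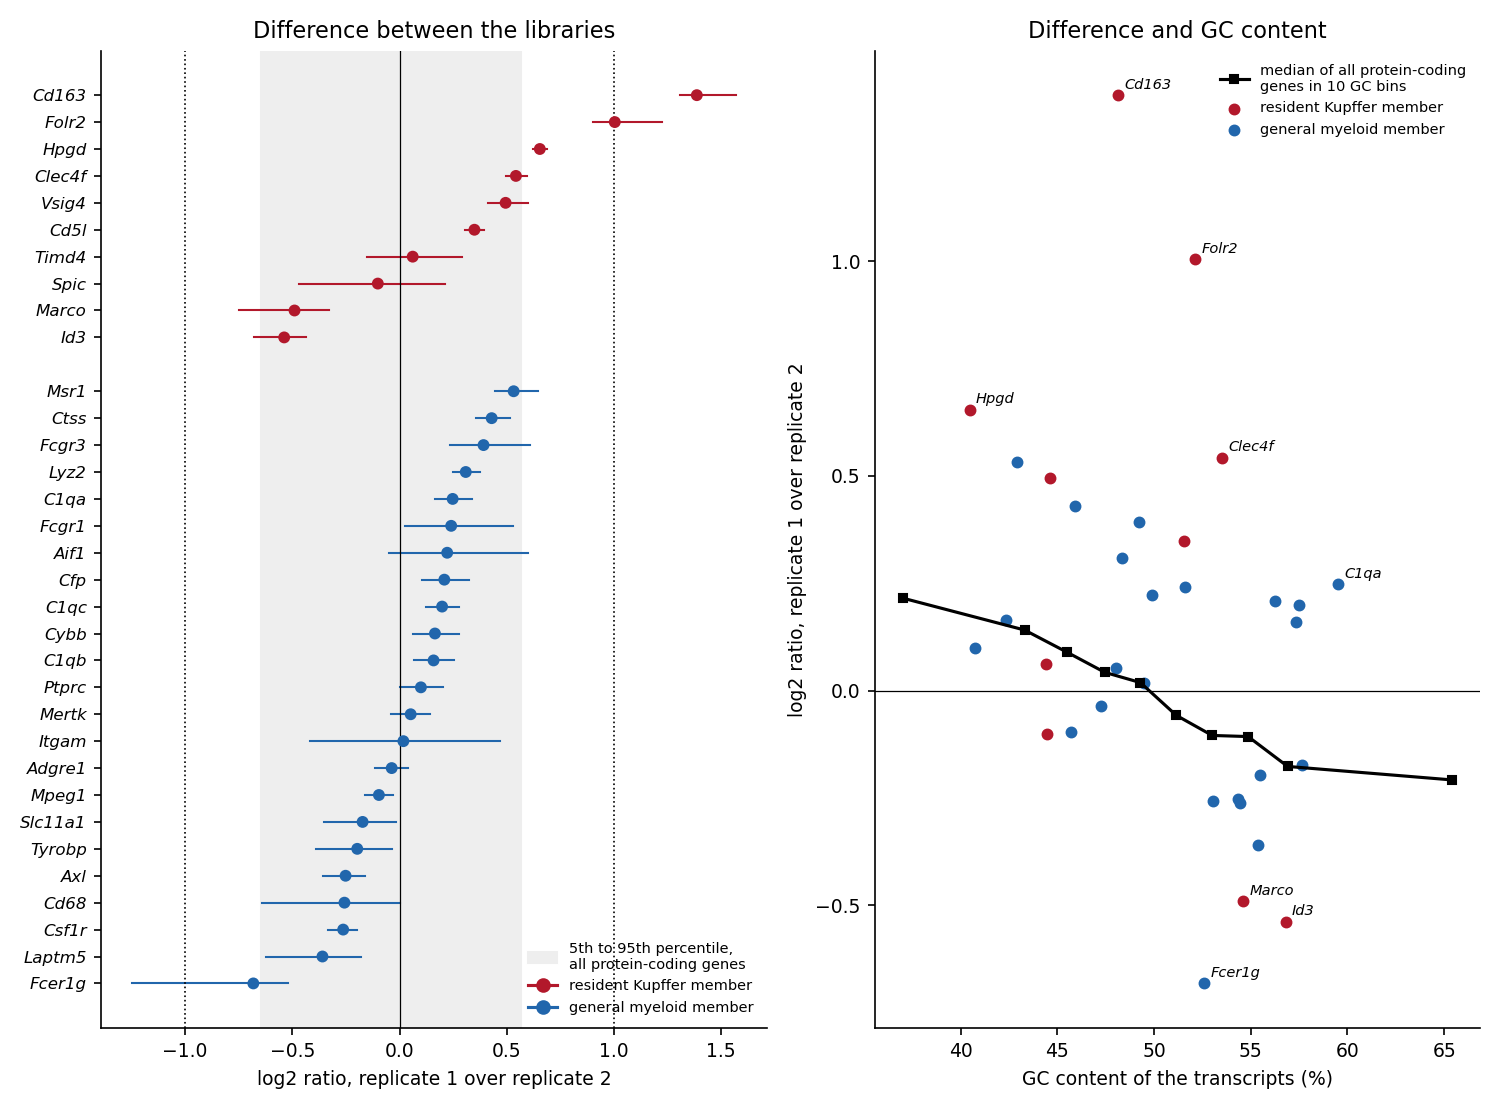
Left, log2 ratio of replicate 1 over replicate 2 for each marker gene, with its 95% counting interval (lines), resident members above (red) and general members below (blue); the grey band is the 5th to 95th percentile of all tested protein-coding genes and dotted lines mark 2-fold. Right, the same ratio against the GC content of the gene's transcripts in percent, with medians of all tested genes in 10 GC bins (black squares). Cd163 and Folr2 stand above the other members in both panels.

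The transcript tables showed which isoforms carried these levels. The same transcript had the highest share in both libraries for 32 of 33 members, and it was annotated as protein-coding in both for 31. For 17 members that transcript held at least 90% of the gene's TPM in both libraries. By TPM, only Aif1 had different leading transcripts: the retained intron form Aif1-205 held 60.2% of its TPM in replicate 1, and the coding form Aif1-203 held 75.4% in replicate 2. These came from 69.1 and 126 counts. By counts, Aif1-203 led in both libraries, with 62.4% of the gene's counts in replicate 1 and 87.9% in replicate 2. For 10 members, transcripts not annotated as coding took more than 10% of the TPM in a library. In Clec4f, the non-coding form Clec4f-202, 606 nucleotides long, took 43.9% of the TPM in replicate 1 and 38.3% in replicate 2, but 12.01% and 9.96% of the counts. In Slc11a1, the 378-nucleotide form Slc11a1-206 took 49.7% of the TPM in replicate 1 from 50.03 counts and 42.9% in replicate 2 from 53.7 counts. In both genes the short form took a larger share of the TPM than of the counts, of which Slc11a1-206 held 8.73% in replicate 1 and 8.77% in replicate 2. The retained intron form Id3-203 took 46.4% of the Id3 TPM in replicate 1 and 32.4% in replicate 2.

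Msr1 and Cd163 each used a pair of coding forms in nearly fixed shares. Msr1-201 held 63.3% of Msr1 TPM in replicate 1 and 62.8% in replicate 2, and Cd163-201 held 59.9% of Cd163 TPM in replicate 1 and 57.9% in replicate 2, although the Cd163 level itself was over 2-fold apart. Restricted to transcripts annotated as protein-coding, as an alternative chosen after seeing the data, the resident members summed to 736 ppm in replicate 1 and 567 ppm in replicate 2 and the general members to 704 and 689 ppm. On that scale Clec4f had 94.5 ppm in replicate 1 and 72.8 ppm in replicate 2.

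**Figure D5:**
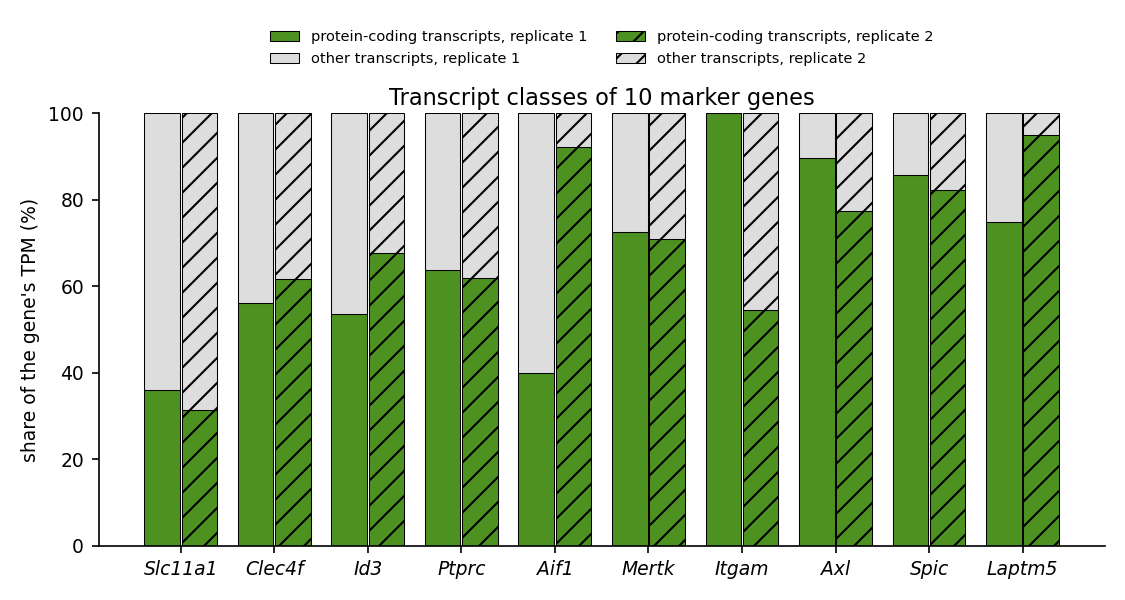
Share of each gene's TPM, in percent, from transcripts annotated as protein-coding (green) and from other transcripts (grey) in replicate 1 (plain, left bar) and replicate 2 (hatched, right bar), for the 10 marker genes where the coding share is under 90% in either library. Slc11a1 and Clec4f have large grey shares in both libraries, Aif1 differs most between the libraries, and for Itgam most of the grey in replicate 2 is a transcript without a class in the annotation.

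Factors known for Kupffer cell identity were present at very different levels. Of 15 listed regulators, 12 were at 1 ppm or more in both libraries, against 51.0% of all protein-coding genes. The 15 genes summed to 436 ppm in replicate 1 and 507 ppm in replicate 2. Nr1h3 (131 and 136 ppm in replicates 1 and 2) and Cebpb (131 and 115 ppm) were highest, and hepatocytes also express both. Spi1, the PU.1 gene whose core letters were frequent in the promoters, had 3.29 ppm in replicate 1 and 4.36 ppm in replicate 2, in the same range as the related factor Spic. On TMM-scaled counts, Bhlhe41 was the only regulator over 2-fold apart (log2 ratio 1.05), with 1.24 ppm in replicate 1 and 0.307 ppm in replicate 2. It was not past 2-fold with spike-in scaling (0.85). With that scaling the regulators Id1 (-1.13) and Id2 (-1.10) were past it, both higher in replicate 2. Id1 was also past it by the ratio of TPM shares (-1.02), and Id2 after GC and length correction (-1.10). The niche ligands, listed as signals that neighbouring cells can supply, summed to 122 ppm in replicate 1 and 128 ppm in replicate 2. Which liver cells their RNA came from was not tested. Of these 13 genes, 10 were at 1 ppm or more in both libraries, beside the same background of 51.0%. The ligands of Mertk and Axl led: Pros1 had 65.5 ppm in replicate 1 and 61.5 ppm in replicate 2, and Gas6 had 23.3 and 22.3 ppm. The ligands of Csf1r were far lower, with 2.96 and 2.76 ppm for Csf1 and 2.14 and 4.36 ppm for Il34 in replicates 1 and 2. The counts of Il34, 124 in replicate 1 and 103 in replicate 2, gave a log2 ratio of 0.13 with TMM and -0.08 with spike-in scaling, and did not show the gap of its TPM. Dll4, a Notch ligand of endothelial cells, had 2.63 ppm in replicate 1 and 4.79 ppm in replicate 2. Its log2 ratio of -1.05 on TMM-scaled counts was past 2-fold, but not that of the TPM shares (-0.76) or that after GC and length correction (-0.86). Among the ligands past 2-fold only in other scalings was Tgfb1. Its log2 ratio was -0.95 with TMM, -1.44 for the TPM shares and -1.17 with spike-in scaling. Csf1, Il34, Tgfb1 and Spi1 were named after their values were seen.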

How the data were processed

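Total RNA of 2 liver libraries was analysed. The authors quantified each library separately on mm10 with GENCODE M4, per the labels and the submitters' deposited notes. Which aligner and quantifier were used is not given in the sources used here. Expected counts, as deposited, are estimated, unnormalised fragments per feature. The deposited TPM values are scaled to length over all features. The deposited share of a transcript in its gene is a percent. Gene symbols and classes came from an annotation of the same assembly that matched 42462 of 43346 mouse gene rows. TPM was divided by its sum over protein-coding genes. Expected counts were rounded for TMM (edgeR 4.0.16) and, as an alternative, size factors (DESeq2 1.42.0) in R 4.3.3; the rest ran in Python 3.11.15. The added 0.5 CPM equals 39.8 counts in replicate 1 and 37.4 in replicate 2, so ratios of low genes are understated. The ratio calculation was tried on simulated counts with counting error only, which cannot show how reliable the ratios of these libraries are. Members and lists were chosen with earlier results of these data known. Named genes are every member, the 2 highest of each other list, and pathway genes past 2-fold; 1 gene that the rule takes is not reported here.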

Additional observations from a re-analysis of the deposited data

How the results depend on the processing

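The sums depend on the denominator. Over all TPM without spike-ins, the resident and general sums averaged 93.0 and 94.97 ppm. Over nuclear protein-coding genes the general sum was 732 ppm, as a share of counts 651 ppm, and over coding transcripts only, added after seeing the data, 697 ppm. Without Hpgd the resident sum was 391 ppm. Leaving out either replicate gave 574 to 756 ppm for the resident sum, 659 to 673 ppm for the general sum and 32 to 32 members detected. At 1 deposited TPM, 24 members were detected, and at 10 counts or 0.1 ppm, 33. The share of all protein-coding genes at these cuts is not given, so these counts describe the members only. Members over 2-fold apart numbered 1 with spike-in scaling, with the ratio of TPM shares and after GC and length correction. The general median log2 ratio turned to -0.18 with spike-in scaling, and the cause was not tested. The signs of 11 members differed in some scaling: Timd4, C1qa, C1qb, C1qc, Cybb, Aif1, Cfp, Itgam, Ptprc, Fcgr1 and Mertk. No paired analysis was possible because both libraries form a single group. Depth limits Itgam, Fcer1g, Spic, Aif1 and Cd68, which had under 200 counts in each library.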

Other observations

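Partner genes of the phagocyte receptors summed to 305 ppm in replicate 1 and 442 ppm in replicate 2. In both libraries 21 of 23 were at 1 ppm or more, against 51.0% of all protein-coding genes. Over all tested genes the median log2 ratio of replicate 1 over replicate 2 was -0.01, with 48.7% higher in replicate 1. For the partner genes it was -0.18, with 16 of 23 higher in replicate 2, whereas the resident members had a median of 0.42. Of the partner genes, Cd74 and H2-Ab1 were over 2-fold higher in replicate 2, although H2-Ab1 was not past 2-fold after correction for GC content and length (-0.94). Cd74, the invariant chain, had 34.7 ppm in replicate 1 and 98.0 ppm in replicate 2 (log2 ratio -1.35), and H2-Ab1, an MHC class II chain, had 20.7 and 46.5 ppm (-1.03). B cells also express both, and all 8 B cell markers were higher in replicate 2; their part in the result was not tested. Fcgr2b, the inhibitory IgG receptor, which sinusoidal endothelium also expresses, had 61.6 ppm in replicate 1 and 52.0 ppm in replicate 2.

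Iron recycling genes, which Kupffer cells share with hepatocytes, summed to 4171 ppm in replicate 1 and 6116 ppm in replicate 2. At 1 ppm or more were 8 of 8, against 51.0% of all protein-coding genes. By log2 ratio, 7 of 8 were higher in replicate 2, while 48.7% of all tested genes were higher in replicate 1. The ferritin chains led, Ftl1 with 2841 and 4565 ppm and Fth1 with 1013 and 1152 ppm in replicates 1 and 2. Hmox1, which degrades haem, had 14.5 ppm in replicate 1 and 29.1 ppm in replicate 2. Id1 (14.7 and 30.3 ppm) and Id2 (69.3 and 134 ppm) were higher in replicate 2, as Id3 was. Hmox1, Id1 and Id2 were named after their values were seen.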
